A study of Mus musculus with 9 samples.

Results

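The 10 genes described here encode the insulin-like growth factor (IGF) ligands Igf1 and Igf2, the acid-labile subunit Igfals, and the IGF binding proteins (IGFBP) Igfbp1 to Igfbp7. They were chosen by name, and all 10 were among the 16755 genes of the deposited expression table. Total RNA of 9 male C57BL/6 mouse livers was sequenced after poly(A) selection, 3 in each of 3 groups, and every mouse carried Scd2 with a floxed exon. The first group, Scd2f/f tumor-adjacent liver (TAL), came from mice that received diethyl nitrosamine (DEN), a hepatic carcinogen, at 10 mg/kg and 2 weeks of age and were then fed a Western alcohol diet (WAD) from 6 weeks of age, for 4 months by the labels and longer by the methods of the study. The second group, Scd2f/f;CC TAL, had the same DEN and WAD and also carried a Cre recombinase under the Col1a1 promoter. This promoter is active in activated hepatic stellate cells (aHSC) and portal fibroblasts and deletes Scd2, a desaturase of fatty acids, in these cells and not in hepatocytes. The third group, Scd2f/f control liver, is labelled untreated, although the treatment text attached to these samples is that of the mice with DEN and WAD, so the quotients to control liver rest on the label. The labels call all tissue liver, and the age of the control mice is not given in the sources used here.

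IGF1 is made mainly by hepatocytes under growth hormone and circulates in a complex with IGFBP3 or IGFBP5 and the acid-labile subunit. IGF2 is a fetal growth factor whose gene is imprinted and largely silent in the adult mouse liver. The IGFBPs hold the ligands in the blood and the matrix and set how much reaches the receptor IGF1R. IGFBP1 and IGFBP2 are products of hepatocytes, while IGFBP3, IGFBP5 and IGFBP7 are known in liver mostly from stellate cells, fibroblasts, endothelial cells and macrophages. IGFBP7 binds IGF only weakly.

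Each value below is the authors' mean of a group, a least-squares mean of read counts normalized to the upper quartile, and is called the mean. Only group means were analysed, and the p-values that the authors deposited beside them were not used, so no error or test is given and no difference is set against the variation among mice. A quotient is the mean of a group divided by that of another, and genes are called at a quotient of 2-fold or more in either direction, which is a size and not a significance. Of the 3 comparisons, the DEN + WAD comparison is the quotient of Scd2f/f TAL to control liver, and the deletion comparison is the quotient of the TAL with the Cre to the TAL without it. The last is the quotient of Scd2f/f;CC TAL to control liver. Each pair of comparisons shares a group, so they are not independent of each other. Fewer cells of a type and less RNA per cell cannot be told apart in bulk tissue. The depth of each sample is unknown. The 75th percentile of the means over all genes was 15.5 in control liver, 15.5 in TAL of Scd2f/f mice and 15.4 in TAL of Scd2f/f;CC mice. The targeted gene Scd2 had means of 2.46 in control liver, 6.47 in TAL of Scd2f/f mice and 1.87 in TAL of Scd2f/f;CC mice.

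Of the 10 genes, 4 lie as neighbours with their 3' ends facing each other. In coordinates of GRCm38 (mm10), Igfbp1 lies on the plus strand of chromosome 11 from 7197782 to 7202546 and Igfbp3 on the minus strand from 7206086 to 7213923, with 3.54 kb between them. Igfbp2 lies on the plus strand of chromosome 1 from 72824503 to 72852474 and Igfbp5 on the minus strand from 72857932 to 72874884, with 5.46 kb between them. The 250 bases before a RefSeq start of each of these 4 genes are shown because the neighbours differed in their means, as described below. They are from GRCm38.p6, 5' to 3' on the strand of the gene, and capitals mark matches to the motifs named after them.
Igfbp1, chr11:7197537-7197786, plus strand: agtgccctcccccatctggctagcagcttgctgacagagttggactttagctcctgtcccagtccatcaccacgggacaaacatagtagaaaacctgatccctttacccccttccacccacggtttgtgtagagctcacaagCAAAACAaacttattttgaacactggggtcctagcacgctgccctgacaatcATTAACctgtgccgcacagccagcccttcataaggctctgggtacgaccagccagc
Igfbp3, chr11:7213924-7214173, minus strand: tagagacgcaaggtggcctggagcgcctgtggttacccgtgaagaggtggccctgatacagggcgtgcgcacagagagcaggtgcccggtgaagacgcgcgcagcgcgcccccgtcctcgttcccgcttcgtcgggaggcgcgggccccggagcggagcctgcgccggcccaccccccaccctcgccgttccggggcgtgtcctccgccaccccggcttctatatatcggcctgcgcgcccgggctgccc
Igfbp2, chr1:72824230-72824479, plus strand: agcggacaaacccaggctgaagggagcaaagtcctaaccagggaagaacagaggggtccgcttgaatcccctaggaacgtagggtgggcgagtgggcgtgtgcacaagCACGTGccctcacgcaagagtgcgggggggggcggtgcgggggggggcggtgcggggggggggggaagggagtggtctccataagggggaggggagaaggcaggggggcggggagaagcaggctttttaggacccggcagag
Igfbp5, chr1:72874866-72875115, minus strand: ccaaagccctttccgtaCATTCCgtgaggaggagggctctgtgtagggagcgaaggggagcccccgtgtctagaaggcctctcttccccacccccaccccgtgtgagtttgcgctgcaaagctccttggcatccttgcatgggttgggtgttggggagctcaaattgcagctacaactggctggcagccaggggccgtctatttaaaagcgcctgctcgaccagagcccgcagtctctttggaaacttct
The 8 motifs searched, each on both strands, were the TATA box, the core of the insulin response element, the forkhead core, the HNF1 half-site, the AP-1 consensus, the TEAD motif, the TCF/LEF motif and the E-box. Igfbp1 held the insulin response element core, CAAAACA, from 108 to 102 bases before the start, and the HNF1 half-site on the opposite strand, from 56 to 51 bases before it. The letters searched for the half-site were GTTAAT. Of 32851 promoter windows of the same length, 5.56% held the first of these motifs and 6.43% the second. In Igfbp2 the E-box CACGTG was found, a motif in 6.02% of windows, while another RefSeq window of Igfbp2, not shown, held the AP-1 consensus, found in 6.75% of windows. In Igfbp5 the TEAD motif was found on the opposite strand, and 12.6% of windows hold it. The letters searched for TEAD were GGAATG. Igfbp3 held none of the 8 motifs as searched. The letters searched for the TATA box were TATAAA, and other forms of it were not searched. The window of Igfbp3 holds the letters tatatat near the start, so a TATA element of another form is not excluded there. TEAD is the DNA-binding partner of YAP1, and HNF1 and forkhead proteins are factors of hepatocytes. A match is a stretch of letters and not a site known to be bound. The other 6 genes also had windows in RefSeq, which makes 16 windows for the 10 genes. The TEAD motif was in 5 of the 16, of which 3 belong to Igf2. The TCF/LEF motif, CTTTGAT, was in 0 of the 16 and in 3.21% of all windows.

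**Figure D1:**
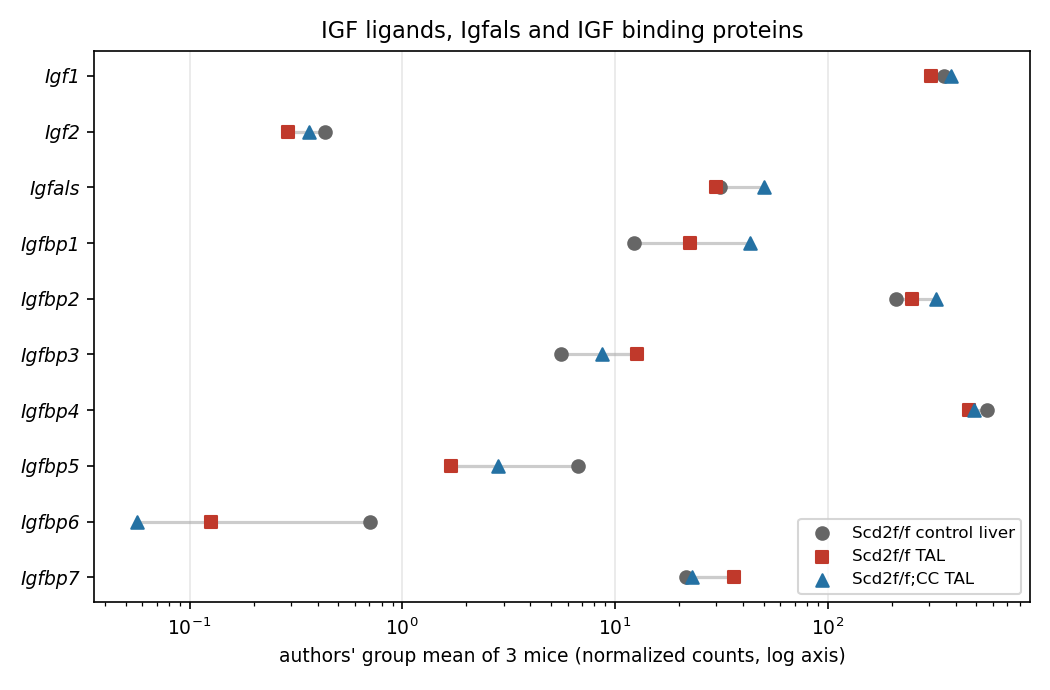
The plot of means by group shows the authors' mean of 3 mice (normalized counts, log axis) for each gene, with a circle for Scd2f/f control liver, a square for Scd2f/f TAL and a triangle for Scd2f/f;CC TAL. Igf1, Igfbp2 and Igfbp4 have means of 210 to 563 in all groups, Igf2 and Igfbp6 have means under 1, and Igfbp3 and Igfbp7 are highest in Scd2f/f TAL.

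The ligands differed little between the groups. Igf1, the growth factor of the postnatal liver, had means of 351 in control liver, 305 in TAL of Scd2f/f mice and 381 in TAL of Scd2f/f;CC mice. These means lay within a 1.25-fold range. Igf2 had means of 0.435 in control liver, 0.29 in TAL of Scd2f/f mice and 0.366 in TAL of Scd2f/f;CC mice, so that DEN and WAD came with no higher mean of this fetal ligand. Per kb of exon, the mean of Igf2 was 0.0507 in Scd2f/f TAL, and 4.07% of the 16129 genes with a known length had a lower level per kb there. Igf1 was at 30.8 per kb in the same group, above 95.7% of these genes. Both ligands were lowest in Scd2f/f TAL, with log2 quotients to control liver of -0.20 for Igf1 and -0.58 for Igf2. In the deletion comparison, the log2 quotients were 0.32 for Igf1 and 0.34 for Igf2. Igf1 shares 5117 bases with the antisense gene Igf1os, which had means of 0.571 to 0.714. Igf2 shares 16048 bases with Gm49394 on the same strand, which is not analysed here, so its reads cannot be assigned with certainty.

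Igfals, which encodes the subunit that keeps the IGF1 complex in the circulation, had means of 31.2 in control liver, 30.0 in TAL of Scd2f/f mice and 50.3 in TAL of Scd2f/f;CC mice. The means of control liver and Scd2f/f TAL were within 1.04-fold of each other, and that of Scd2f/f;CC TAL was 1.68-fold higher than in Scd2f/f TAL. Only 3.49% of all genes had a higher quotient in that comparison. Igfals did not reach 2-fold in any comparison.

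Of Igfbp1, Igfbp2 and Igfbp4, Igfbp1 differed most between the groups. Igfbp1, an IGFBP that insulin represses and fasting and stress raise, had means of 12.3 in control liver, 22.6 in TAL of Scd2f/f mice and 43.3 in TAL of Scd2f/f;CC mice. The mean was 1.84-fold higher in Scd2f/f TAL than in control liver, and 1.92-fold higher in Scd2f/f;CC TAL than in Scd2f/f TAL. Against control liver, Scd2f/f;CC TAL was 3.52-fold higher, and 1.2% of all genes had a higher quotient. Igfbp1 had the highest quotient of the 10 genes in both comparisons of Scd2f/f;CC TAL. Igfbp2, the main IGFBP of fetal liver and a product of hepatocytes in the adult, had means of 210 in control liver, 249 in TAL of Scd2f/f mice and 323 in TAL of Scd2f/f;CC mice. It was in the same order as Igfbp1 but with smaller steps, 1.19-fold and 1.30-fold. Igfbp4, an IGFBP that PAPP-A cleaves, had means of 563 in control liver, 462 in TAL of Scd2f/f mice and 486 in TAL of Scd2f/f;CC mice. Its quotient in the deletion comparison was 1.05, the nearest to 1 of the 10 genes.

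Igfbp3 and Igfbp7 were highest in Scd2f/f TAL. Igfbp3, the main IGFBP of the blood, had means of 5.59 in control liver, 12.7 in TAL of Scd2f/f mice and 8.69 in TAL of Scd2f/f;CC mice. It was 2.27-fold higher in Scd2f/f TAL than in control liver and 1.46-fold lower in Scd2f/f;CC TAL than in Scd2f/f TAL. Igfbp7, a secreted protein of vessels and stroma, had means of 21.6 in control liver, 36.3 in TAL of Scd2f/f mice and 23.0 in TAL of Scd2f/f;CC mice. The mean in Scd2f/f TAL was 1.68-fold above control liver, and the mean in Scd2f/f;CC TAL was 1.58-fold below Scd2f/f TAL and within 1.06-fold of control liver. Of all genes, 8.42% had a lower quotient than Igfbp7 and 10.6% a lower quotient than Igfbp3 in the deletion comparison. Igfbp7 shares 7085 bases with the antisense gene Gm34648, which is not analysed here, and overlaps Polr2b, on the opposite strand, by 85 bases, and Polr2b had means of 27.3 to 28.9. The reads of both strands cannot be told apart with a library kit that does not mark strand.

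Igfbp5 and Igfbp6 were highest in control liver. Igfbp5, an IGFBP bound to matrix, had means of 6.69 in control liver, 1.69 in TAL of Scd2f/f mice and 2.82 in TAL of Scd2f/f;CC mice. It was 3.96-fold lower in Scd2f/f TAL than in control liver, and 1.26% of all genes had a lower quotient. In Scd2f/f;CC TAL the mean was 1.67-fold higher than in Scd2f/f TAL and 2.37-fold lower than in control liver. Igfbp6, which binds IGF2 in preference to IGF1, had means of 0.704 in control liver, 0.126 in TAL of Scd2f/f mice and 0.0566 in TAL of Scd2f/f;CC mice. The quotients were 5.59-fold lower in Scd2f/f TAL and 12.4-fold lower in Scd2f/f;CC TAL than in control liver. These means are near the lowest of the table, which were 0.0348 in TAL of Scd2f/f mice and 0.0349 in TAL of Scd2f/f;CC mice. With 1 added to each mean, the log2 quotient of Igfbp6 in the DEN + WAD comparison was -0.60 in place of -2.48.

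**Figure D2:**
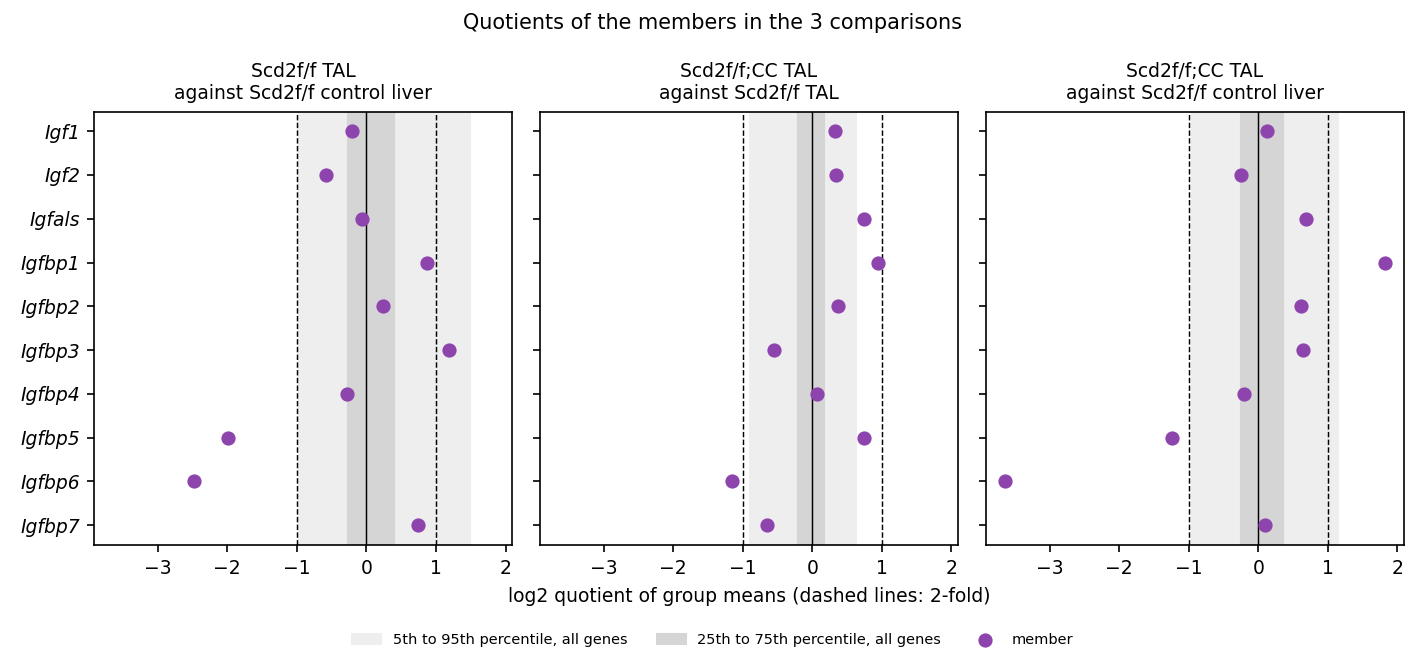
The plot of quotients shows the log2 quotient of group means of each gene in the 3 comparisons, with grey bands for the middle 50% and middle 90% of all genes and dashed lines at 2-fold. Igfbp5 and Igfbp6 lie left of the 2-fold line in both comparisons with control liver, and Igfbp1 lies to the right of it in Scd2f/f;CC TAL against control liver.

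In the DEN + WAD comparison, 1 of the 10 genes was at least 2-fold higher, Igfbp3, where 9.37% of all genes were. In the same comparison 2 were at least 2-fold lower, Igfbp5 and Igfbp6, where 4.69% of all genes were. The median log2 quotient of the 10 genes was -0.13, beside 0.04 over all genes. For the deletion comparison, which asks what Scd2 deletion in Col1a1-expressing cells came with, 0 of the 10 genes were at least 2-fold higher, where 1.82% of all genes were. Igfbp6 was at least 2-fold lower in that comparison, where 4.07% of all genes were, or 9.92% of the 4908 genes with a mean under 1. The median log2 quotient of the 10 genes was 0.33, beside 0.00 over all genes, and 7 of them were above 0. Of all 16755 genes, 8298 were above 0 in that comparison. In Scd2f/f;CC TAL against control liver, Igfbp1 was at least 2-fold higher, where 6.41% of all genes were, and Igfbp5 and Igfbp6 at least 2-fold lower, where 4.64% were. With 10 genes, a single gene is 10% of the set, and no test of these counts was run.

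At a limit of 1.5-fold, the DEN + WAD comparison had 3 genes higher (Igfbp1, Igfbp3 and Igfbp7), where 17.2% of all genes were, and 3 lower (Igf2, Igfbp5 and Igfbp6), where 11.3% were. The deletion comparison had 3 higher at that limit (Igfals, Igfbp1 and Igfbp5), where 5.72% of all genes were, and 2 lower (Igfbp6 and Igfbp7), where 9.82% were. Against control liver, Scd2f/f;CC TAL had 4 higher (Igfals, Igfbp1, Igfbp2 and Igfbp3), where 14.9% of all genes were, and 2 lower (Igfbp5 and Igfbp6), where 10.9% were. Restricted to means of 1 or more, the 2-fold limit left 1 higher and 1 lower in the DEN + WAD comparison (6.38% and 3.02% of all such genes), 0 and 0 in the deletion comparison (0.642% and 1.65%), and 1 and 1 in Scd2f/f;CC TAL against control liver (4.2% and 2.66%). Of the genes with a mean under 1, Igf2 and Igfbp6, 0 were higher and 1 was lower in each comparison. The shares of all genes with a mean under 1 were 16.5% and 8.65% in the DEN + WAD comparison, 4.67% and 9.92% in the deletion comparison, and 11.5% and 9.21% in Scd2f/f;CC TAL against control liver.

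The order of the groups sorted the 10 genes into sets that cut across the neighbouring pairs. The mean was highest in Scd2f/f;CC TAL for 4 genes, Igf1, Igfals, Igfbp1 and Igfbp2, in Scd2f/f TAL for 2 genes, Igfbp3 and Igfbp7, and in control liver for 4 genes, Igf2, Igfbp4, Igfbp5 and Igfbp6. Of the neighbours on chromosome 11, Igfbp1 and Igfbp3 were both higher in Scd2f/f TAL than in control liver, by 1.84-fold and 2.27-fold. They lay on opposite sides of 1 in the deletion comparison, with quotients of 1.92 for Igfbp1 and 0.684 for Igfbp3. Of the neighbours on chromosome 1, Igfbp2 and Igfbp5 had quotients of 1.19 and 0.253 in the DEN + WAD comparison, and both were higher in Scd2f/f;CC TAL than in Scd2f/f TAL, with quotients of 1.30 and 1.67.

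Transcripts of different genes can be compared only per length. Divided by the kb of exon in GENCODE M21, the summed level of Igfbp1 to Igfbp7 was 270.7 in control liver, 288.7 in TAL of Scd2f/f mice and 335.6 in TAL of Scd2f/f;CC mice. Igfbp2 and Igfbp4 made up most of the sum in every group. The share of Igfbp4 was 47.1% in control liver, 36.2% in TAL of Scd2f/f mice and 32.8% in TAL of Scd2f/f;CC mice. Igfbp2 held 42.0%, 46.7% and 52.1% of the sum in the same order of groups. Igfbp4 thus led in control liver and Igfbp2 in both TAL groups, a change of order that depends on the length used, since Igfbp2 led in all groups by the longest transcript. The share of Igfbp1 was 2.98%, 5.13% and 8.46% in the same order, and that of Igfbp7 was 6.60%, 10.4% and 5.67%. Igfbp3 held between 0.660% and 1.41% of the sum, and Igfbp5 and Igfbp6 together stayed at the low end, with at most 0.412% for Igfbp5 and 0.234% for Igfbp6.

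**Figure D3:**
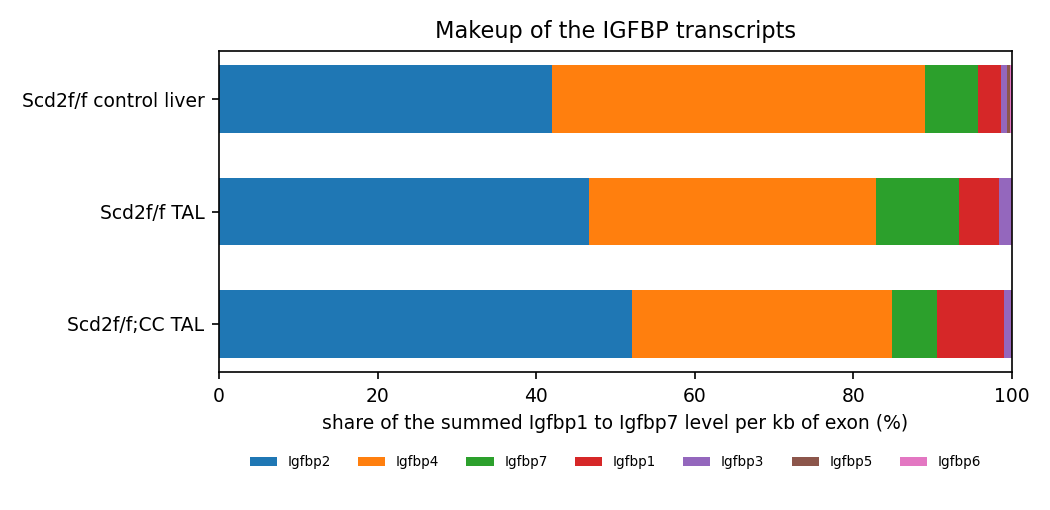
The plot of IGFBP makeup gives the share of each gene in the summed Igfbp1 to Igfbp7 level per kb of exon (%), with a bar for each group. The segment of Igfbp1 is widest in Scd2f/f;CC TAL (8.46%) and that of Igfbp7 in Scd2f/f TAL (10.4%).

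Of the receptors, Igf1r, the one that carries the growth signal of both ligands, had means of 3.07 in control liver, 3.43 in TAL of Scd2f/f mice and 3.08 in TAL of Scd2f/f;CC mice. Igf2r, which takes IGF2 and lysosomal enzymes into lysosomes, had means of 42.2, 69.8 and 61.5 in the same order of groups, 1.65-fold higher in Scd2f/f TAL than in control liver. Insr, the insulin receptor, had means of 98.0, 107 and 125. Ghr, the growth hormone receptor, had a mean of 274 in control liver and in TAL of Scd2f/f mice and of 348 in TAL of Scd2f/f;CC mice. None of the 10 genes listed for receptors and adaptors was past 2-fold in any comparison, and their median log2 quotients were 0.12 in the DEN + WAD comparison and -0.04 in the deletion comparison. None of the 16 genes listed for PI3K and AKT, the kinases below the receptors, was past 2-fold either, and their log2 quotients ran from -0.31 to 0.06 in the deletion comparison.

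In the growth hormone axis, the genes past 2-fold were Socs3, Cish and Prlr. In the DEN + WAD comparison, 1 of 11 was higher and 0 lower, beside 9.37% and 4.69% of all genes. In the deletion comparison, 1 was higher and 2 lower, beside 1.82% and 4.07% of all genes. Against control liver, Scd2f/f;CC TAL had 1 higher and 1 lower, beside 6.41% and 4.64% of all genes. Socs3, an inhibitor of cytokine receptors, had means of 6.44 in control liver, 16.2 in TAL of Scd2f/f mice and 4.71 in TAL of Scd2f/f;CC mice. Cish, an inhibitor that STAT5 induces, had means of 10.8, 7.84 and 2.70 in the same order, so that Scd2f/f;CC TAL was at 0.344 of Scd2f/f TAL and 0.250 of control liver. Socs2, another STAT5 target, had means of 23.7, 12.6 and 13.3. Stat5b, the signal transducer of the growth hormone receptor, had means of 17.7, 30.6 and 34.6, and its relative Stat5a had means of 5.77, 8.98 and 8.31. Prlr, the prolactin receptor, had means of 35.6 and 35.2 in control liver and Scd2f/f TAL and of 77.0 in Scd2f/f;CC TAL. The median log2 quotient of the 11 genes of the axis was -0.02 in the DEN + WAD comparison and -0.10 in the deletion comparison.

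Among 11 listed proteases of IGFBPs and stanniocalcins found in the table, 3 were at least 2-fold higher in Scd2f/f TAL than in control liver. Each of the 3 was above 1 in Scd2f/f TAL. In the same comparison 1 other gene of the list, with means under 1 in both groups, was at least 2-fold lower. Over the whole table, 9.37% of genes were that much higher and 4.69% that much lower. Mmp2, a matrix protease that also cleaves IGFBPs, had means of 1.19 in control liver, 3.06 in TAL of Scd2f/f mice and 1.07 in TAL of Scd2f/f;CC mice. Htra1, a serine protease with an IGFBP domain, had means of 0.883, 1.90 and 0.914 in the same order. Both were highest in Scd2f/f TAL and close to control liver in Scd2f/f;CC TAL. Adamts1, a protease of proteoglycans, had means of 4.55, 10.6 and 8.53. Htra3 had means of 0.918, 1.17 and 0.385, a quotient of 0.329 in the deletion comparison. Pappa, Pappa2 and Stc2 were not analysed here.

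Of the relatives that share the IGFBP domain, Cyr61, a matricellular protein and target of YAP1, had means of 5.11 in control liver, 12.7 in TAL of Scd2f/f mice and 11.4 in TAL of Scd2f/f;CC mice. Ctgf, another target of YAP1, had means of 5.40, 4.33 and 2.51 in the same order. Among genes near Igf2 or that bind its mRNA, H19, the noncoding RNA imprinted together with Igf2, had means of 1.44, 2.36 and 3.66, while Igf2 itself stayed between 0.29 and 0.435. Meg3, an imprinted noncoding RNA, had means of 1.34, 0.763 and 0.575. Over all 60 pathway genes found beside the 10, 5 were at least 2-fold higher and 1 lower in Scd2f/f TAL than in control liver, beside 9.37% and 4.69% of all genes. In the deletion comparison, 2 were higher and 6 lower, beside 1.82% and 4.07% of all genes. In Scd2f/f;CC TAL against control liver, 3 were higher and 6 lower, beside 6.41% and 4.64% of all genes.

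**Figure D4:**
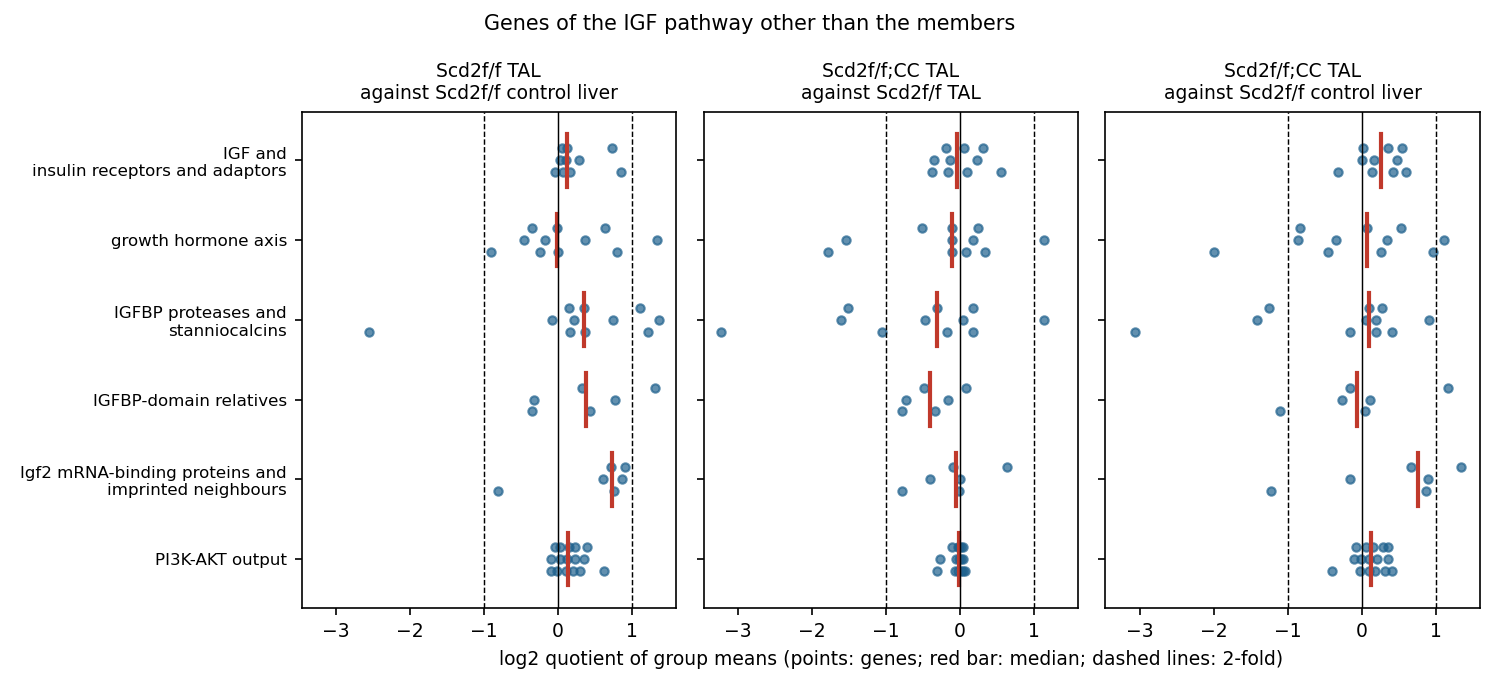
The plot of pathway genes gives the log2 quotient of group means for each gene of 6 lists (points), the median of each list (red bar) and the 2-fold limits (dashed lines), in the 3 comparisons. The PI3K-AKT genes lie close to 0. In the deletion comparison, 4 IGFBP proteases lie past the 2-fold limit on the lower side and 1 on the higher side. The shares of all genes there were 4.07% and 1.82%.

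Markers of cell types also differed in the same comparisons, and their part in the values of the 10 genes was not tested. The hepatocyte markers, such as Alb, Apoa1 and Serpina1c, were present at summed means of 37730, 34190 and 38780 in control liver, Scd2f/f TAL and Scd2f/f;CC TAL. The order of these sums, lowest in Scd2f/f TAL, is also that of Igf1 and Igfals. Alb alone had means of 21300, 20900 and 22700. Of the 12 hepatocyte markers, 11 were above 0 in the log2 quotient in the deletion comparison, with a median of 0.21. Of all 16755 genes, 8298 were above 0 there. Igf1 was at 0.32 and Igfals at 0.75 in that comparison, so the shared order is not a shared size. The 13 markers of HSC and portal fibroblasts, such as Dcn, Reln and Col3a1, had summed means of 208.4, 353.4 and 200.7, highest in Scd2f/f TAL as for Igfbp3 and Igfbp7 but lowest in Scd2f/f;CC TAL, where Igfbp3 and Igfbp7 were lowest in control liver. Their median log2 quotient was 0.70 in the DEN + WAD comparison and -1.12 in the deletion comparison. In the latter, 13 of 13 were below 0, where 8308 of 16755 genes were. Of the 13, 8 were at least 2-fold lower, where 4.07% of all genes were. Igfbp5 lay on the other side of 0 from these medians, with log2 quotients of -1.985 and 0.739 in the same comparisons. The 10 endothelial markers, such as Stab2, Kdr and Eng, had summed means of 168.1, 216.2 and 218.4 and a median log2 quotient of -0.04 in the deletion comparison.

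Of the macrophage markers, such as Cd5l, Lyz2 and Clec4f, 12 of 12 were at least 2-fold higher in Scd2f/f TAL than in control liver. The share of all genes was 9.37%. The summed means of these markers were 103.2 in control liver, 416.3 in TAL of Scd2f/f mice and 331.4 in TAL of Scd2f/f;CC mice. The 7 cholangiocyte markers, such as Spp1, Sox9 and Epcam, had summed means of 59.2, 54.4 and 19.4. Spp1 alone had means of 52.3, 45.1 and 14.8. Of the 7, 6 were at least 2-fold lower in Scd2f/f;CC TAL than in Scd2f/f TAL. The share was 4.07% of all genes and 9.92% of genes with a mean under 1. Only 3 of the 7 had a mean of at least 1 over the groups. The 10 markers of T and B cells, such as Cd4, Cd3e and Cd8a, had summed means of 2.23, 6.39 and 4.53. Igfbp3 and Igfbp7 were lowest in control liver and highest in Scd2f/f TAL, as were the macrophage and the T and B cell sums. Ranks alone are set side by side here, and some rest on small differences with no known error. Igfbp7 was at 23.0 in Scd2f/f;CC TAL and 21.6 in control liver, and the HSC and portal fibroblast sum at 200.7 and 208.4. In size, the macrophage sum was 331.4 in Scd2f/f;CC TAL beside 103.2 in control liver. Which cells set the means of Igfbp3 and Igfbp7 was not tested. The table lists no gene at 0.

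**Figure D5:**
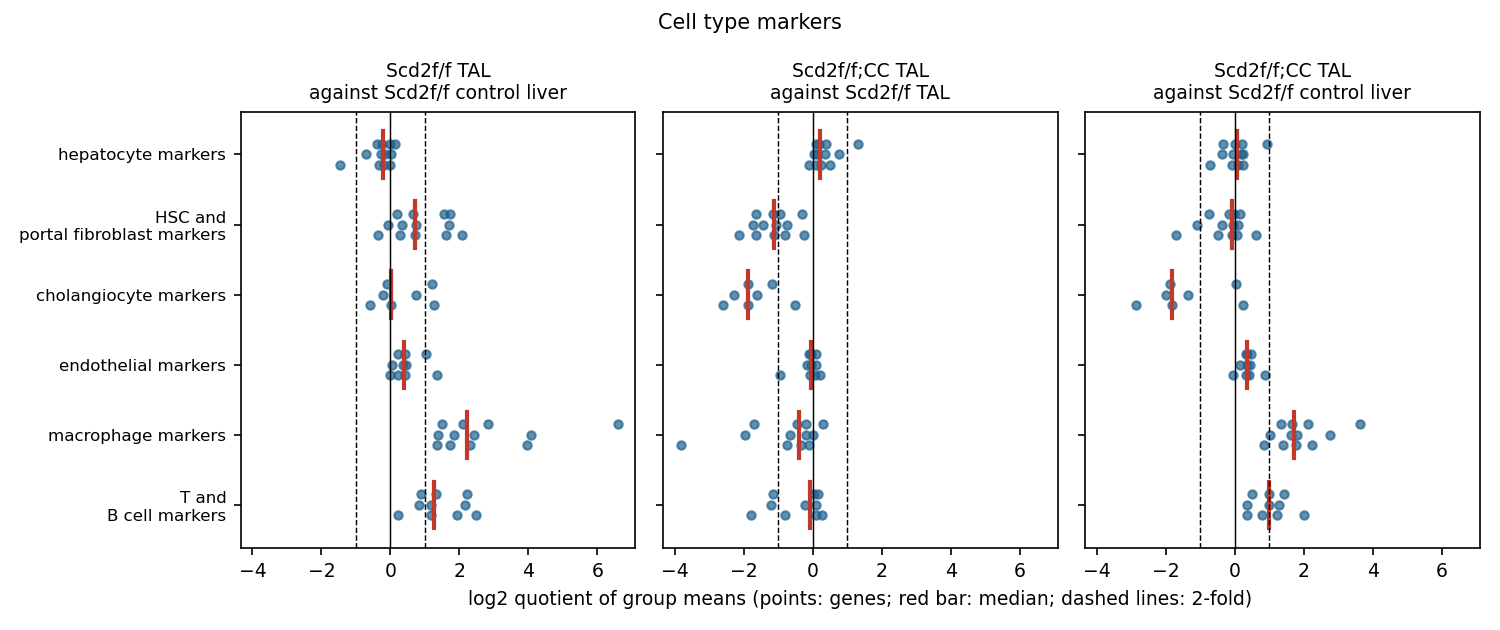
The plot of cell type markers gives the log2 quotient of group means for each marker (points), the median of each list (red bar) and the 2-fold limits (dashed lines), in the 3 comparisons. All 12 macrophage markers lie past 2-fold on the higher side in the DEN + WAD comparison, where 9.37% of all genes do. All 13 markers of HSC and portal fibroblasts lie below 0 in the deletion comparison, where 8308 of 16755 genes do.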

How the data were processed

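The authors extracted RNA with a PicoPure kit, prepared poly(A) libraries with the Illumina TruSeq RNA v2 kit, and sequenced them on a NextSeq. Per the labels' processing notes, which name STAR 2.6.1, Partek 6 and mm10, the reads were processed before deposit. By the methods, expression was estimated by the authors with Partek E/M on a Gencode annotation, scaled to the upper quartile and compared with the Gene Specific Analysis of Partek. The deposited table has 16755 genes and 18 columns. The signal deposited by the authors, used here, is the least-squares mean of the normalized counts of each group, with 3 significant digits. Upper quartile scaling sets the groups to the same 75th percentile, so a change of total RNA would not be seen. The authors' p-values, FDR, ratios and fold changes in the table were not used.

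Samples were grouped by their titles. Quotients and log2 quotients were computed from the group means with no pseudocount, and called at 2-fold. Since single-sample values were not analysed here, no test was run and the precision of a mean is unknown. The 10 genes, the pathway lists and the marker lists were chosen with earlier results of these data known. Genes named beside the 10 are Igf1r, Igf2r, Insr, Ghr, Scd2, pathway genes past 2-fold with a mean of at least 1 in the higher group, and up to 3 markers a list by mean. Socs2, Stat5a, Stat5b, Igf1os, Gm49394, Gm34648 and Polr2b were added after values were seen. The genes named under other observations in the closing section were also chosen after values were seen. Hnf4a stands in 2 lists. The stop column lies 1 base past the gene end of GENCODE M21 for 91.8% of 16129 genes matched by symbol and position, so 1 was subtracted. Lengths are unions of exons of GENCODE M21 on GRCm38. Promoter windows are from RefSeq on GRCm38.p6. The alternatives were fold limits of 1.5 and 3, pseudocounts of 0.1 and 1, a minimum mean of 1, centring, protein-coding genes alone and other lengths. 1 gene was left out of a list in the closing section and is not reported here. The call step was tested on simulated data. Python 3.11.15, NumPy 2.4.6, pandas 2.3.3 and Matplotlib 3.10.9 were used.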

Additional observations from a re-analysis of the deposited data

How the results depend on the processing

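No paired analysis was possible because the deposited columns are group means and carry no replicate numbers, and for the same reason no replicate could be left out. With so few genes past 2-fold, the counts of the 10 genes depended on the limits. In the DEN + WAD comparison, the count higher, 1 at 2-fold, was 3 at 1.5-fold and 0 at 3-fold, and the count lower, 2, was 1 with a pseudocount of 1 and 1 with a minimum mean of 1. In the deletion comparison, the count higher, 0, was 3 at 1.5-fold, and the count lower, 1, was 2 at 1.5-fold and 0 at 3-fold, with a pseudocount of 0.1 or 1, and with a minimum mean of 1. In Scd2f/f;CC TAL against control liver, the count higher, 1, was 4 at 1.5-fold, and the count lower, 2, was 1 at 3-fold, with a pseudocount of 1 and with a minimum mean of 1. Centring and the restriction to protein-coding genes changed none of these 6 counts. A pseudocount of 0.1 or 1 moved the quotients of Igfbp6 by more than 1.5-fold in all 3 comparisons and of none of the other 9 genes, and no log2 quotient past 2-fold turned its sign.

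For the 60 pathway genes, the counts higher and lower in the DEN + WAD comparison were 17 and 3 at 1.5-fold, 3 and 0 with a pseudocount of 1, and the count lower was 0 with a minimum mean of 1. In the deletion comparison they were 1 and 2 with a pseudocount of 1, and the count higher was 1 with a minimum mean of 1. In Scd2f/f;CC TAL against control liver the count higher was 9 at 1.5-fold, and the count lower was 1 with a pseudocount of 1 and 2 with a minimum mean of 1. For the 64 marker genes in the DEN + WAD comparison, the count higher, 28, was 15 with a pseudocount of 1 and 17 with a minimum mean of 1, and the count lower, 1, was 2 at 1.5-fold. In the deletion comparison, the count higher, 1, was 2 at 1.5-fold, and the count lower, 20, was 6 with a pseudocount of 1 and 10 with a minimum mean of 1. In Scd2f/f;CC TAL against control liver, the count higher, 15, was 8 with a pseudocount of 1 and 8 with a minimum mean of 1, and the count lower, 7, was 1 and 3. A minimum mean leaves fewer genes to call, and a pseudocount shrinks the quotients of low means. Without division by length, Igfbp4 made up 58.9% of the IGFBP sum in TAL of Scd2f/f mice and 54.8% in TAL of Scd2f/f;CC mice.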

Other observations

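Hepatocyte genes that insulin is known to lower were listed after the means of Igfbp1 had been seen. The list shares Pck1, G6pc and Tat with the hepatocyte markers. All 6 of its genes had a higher mean in Scd2f/f;CC TAL than in Scd2f/f TAL, with a median log2 quotient of 0.52 beside 0.00 over all genes. Of all 16755 genes, 8298 had a higher mean in that comparison. In the DEN + WAD comparison, 3 of the 6 were higher and 3 lower, with a median log2 quotient of -0.14. Tat had means of 499 in control liver, 181 in TAL of Scd2f/f mice and 305 in TAL of Scd2f/f;CC mice. G6pc, the last enzyme of glucose production, had means of 71.2 in control liver, 54.2 in TAL of Scd2f/f mice and 136 in TAL of Scd2f/f;CC mice. Pck1, an early enzyme of the same pathway, had means of 897, 715 and 1010, and Irs2, an adaptor of the insulin receptor, had means of 13.5, 14.0 and 20.5. Of 5 genes that insulin is known to raise, 3 were lower in Scd2f/f;CC TAL than in Scd2f/f TAL and 2 higher. Fasn, the fatty acid synthase, had means of 243, 150 and 116, and Srebf1, a factor of lipid synthesis, had means of 60.3, 67.7 and 108. Food intake before tissue collection is not given in the sources used here.

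Genes that growth hormone makes differ between male and female mouse liver were listed after the means of Prlr and Cish had been seen. Of 7 female-biased genes, 6 were higher in Scd2f/f;CC TAL than in Scd2f/f TAL, with a median log2 quotient of 1.11. All 7 were higher in Scd2f/f;CC TAL than in control liver. Of all 16755 genes, 8298 were higher in the former comparison and 9126 in the latter. Prlr itself is 1 of the 7, so these counts are not independent of the means seen before. Only 3 of the 7 had a mean of at least 1 over the groups. Cyp2b9, a female-biased cytochrome, had means of 0.135 in control liver, 6.08 in TAL of Scd2f/f mice and 31.1 in TAL of Scd2f/f;CC mice. Cyp2a4, the 1 that was lower in Scd2f/f;CC TAL than in Scd2f/f TAL, had means of 0.348, 32.6 and 12.6. Both have close paralogs with which they can share reads. Of 7 male-biased genes, 5 were lower in Scd2f/f TAL than in control liver and 6 were higher in Scd2f/f;CC TAL than in Scd2f/f TAL. Of all 16755 genes, 7676 were lower in the former comparison and 8298 higher in the latter. Hsd3b5, a male-biased steroid enzyme, had means of 128, 29.0 and 85.8, and Bcl6, a male-biased repressor, had means of 28.2, 10.9 and 24.6. Elovl3, a male-biased elongase, was higher in Scd2f/f TAL than in control liver, with means of 13.7, 34.3 and 73.2. Cyp4a12a was the 1 male-biased gene that was lower in Scd2f/f;CC TAL than in Scd2f/f TAL, with means of 110, 133 and 79.1. No test was run on these lists.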
